A study of Mus musculus with 6 samples.

Results

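The genes described here encode the proteins of the cytosolic ribosome, as measured by RNA-seq in the mouse Achilles tendon. They were taken by symbol: names beginning with Rpl or Rps and a number, the stalk genes Rplp0, Rplp1 and Rplp2, and Rpsa. Of 104 symbols that matched, 6 processed pseudogenes (symbols with -ps) and 10 kinases (symbols beginning with Rps6k) were left out, which gave 88 of the 24411 genes in the table. By name, 53 belong to the large subunit and 35 to the small subunit. The 88 include 10 paralogues or related genes, among them Rpl3l, Rpl22l1, Rpl36al, Rpl39l, Rpl10l, Rpl7l1, Rps27l and the binding protein gene Rps19bp1, which the name pattern also takes in.

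The study compared 3 libraries from WT mice with 3 from Scx-Cre/Piezo1 GOF mice, all of strain C57BL/6 and 18 weeks old. In the second genotype, Cre recombinase is driven by sequence of Scx, a transcription factor gene of tendon cells, and Piezo1, a mechanically gated cation channel, carries a gain-of-function (GOF) allele. The labels name WT controls and do not say whether these carried Cre or the unrecombined allele. They also do not say whether the 3 libraries of a genotype came from separate animals, so p-values measure the spread between these libraries, which may be technical. The libraries are called WT 1 to 3 and Piezo1 GOF 1 to 3 after the replicate numbers in the labels.

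A ribosome is built from ribosomal RNA and one copy of most of these proteins, so their genes are among the most highly expressed and most evenly expressed of a cell. Many of their mRNAs begin with a run of pyrimidines, the terminal oligopyrimidine tract, through which mTOR signalling controls their translation. Rpl3l is an exception to even expression: it is a paralogue of Rpl3 found in skeletal and cardiac muscle, where it takes the place of Rpl3, a protein that lies close to the peptidyl transferase centre. Tendon as dissected can hold muscle from its junction.

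The letters around annotated transcription starts are given first, because the family is known for the pyrimidine run there. RefSeq promoters (GRCm38.p6, 250 bases before to 50 after each start) were found for 67 of the 88 genes, and Rpl3 was not among them. The 8 windows below belong to those genes with a run of C followed by at least 4 C or T, on the gene's strand and beginning 5 bases before to 5 bases after the start, whose values did not overlap between genotypes. Where a gene has several annotated starts, the most upstream one with a run is shown. Each window spans 15 bases before the start and 15 from it on, written 5′ to 3′ on the gene's strand, and capitals mark the run from its first C within that reach.
Rps26 (chr10:128626492-128626521, minus strand): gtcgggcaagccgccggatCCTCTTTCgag
Rps21 (chr2:180257364-180257393, plus strand): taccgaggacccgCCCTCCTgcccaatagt
Rpl39 (chrX:37085208-37085237, minus strand): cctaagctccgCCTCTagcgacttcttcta
Rpl34 (chr3:130730384-130730413, minus strand): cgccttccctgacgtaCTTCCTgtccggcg
Rpl35 (chr2:39005117-39005146, minus strand): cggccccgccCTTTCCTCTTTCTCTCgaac
Rpl35a (chr16:33056467-33056496, plus strand): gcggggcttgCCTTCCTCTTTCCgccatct
Rpl31 (chr1:39367836-39367865, plus strand): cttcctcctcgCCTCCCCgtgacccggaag
Rps23 (chr13:90923107-90923136, plus strand): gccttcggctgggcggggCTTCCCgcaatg
For Rpl3l, on which several results turn, 200 bases before and 20 from the first of its 2 annotated starts are shown, with no capitals because no searched motif was found in it.
Rpl3l (chr17:24727626-24727845, plus strand): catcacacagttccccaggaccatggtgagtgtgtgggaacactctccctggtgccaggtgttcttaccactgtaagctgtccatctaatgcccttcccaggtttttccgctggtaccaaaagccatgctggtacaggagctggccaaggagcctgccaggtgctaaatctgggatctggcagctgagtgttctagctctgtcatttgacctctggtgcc

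The pyrimidine run was present in 30 of the 67 genes found (44.8%), against 21.2% of all 27025 genes in the promoter table. CTTCCG, the core of the ETS and GABP motif, was present on either strand in 44 (65.7%), against 18.8% of all genes. GCCATCTT, the core of the YY1 motif, was present on either strand in 6 (8.96%), against 3.19%. TATAAA on the gene's strand was present in 6 (8.96%), against 9.77%, and CACGTG, the E-box that MYC can bind, in 6 (8.96%), against 8.09%. Matches to different motifs may overlap, and each is a description of letters in the window only. None of these 5 motifs was found in 9 of the 67 members (13.4%), among them Rpl3l, Rpl5, Rpl9 and Rps4x, against 52.5% of all genes. Genes with and without the run had similar differences between genotypes: the median log2 fold change (Piezo1 GOF over WT) was 0.30 over the 30 tested genes with it and 0.27 over the 35 tested genes without it.

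Of the 88 genes, 86 passed the filter on low counts. Rpl10l, a paralogue of Rpl10 known from testis, had 0 counts in all 6 libraries, and Rpl39l, a testis paralogue of Rpl39, had 0 to 7 counts per library. No gene of the 86 passed an adjusted p of 0.05 by edgeR's quasi-likelihood test, in a comparison in which 2 of 13466 genes (0.0149%) did. The smallest adjusted p among the 86 was 0.207. DESeq2 called 0 of them as well, with 891 genes called in all (6.47% of 13765), and limma voom also called 0, with 116 called in all (0.861%). At an unadjusted p under 0.05 by edgeR, 8 of the 86 were higher in Piezo1 GOF (10.2% of all tested genes were) and 1 was lower (9.59% of all tested genes were), so these counts lay near or under the background.

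Most of the 86 genes had a small difference in one direction. The log2 fold change was positive for 79 of the 86, or 91.9%, against 49.7% of all genes tested. The median was 0.28, against -0.00 over all genes, with 0.27 for the 51 large subunit genes and 0.31 for the 35 small subunit genes. The middle of the distribution, from the 25th to the 75th percentile, ran from 0.12 to 0.42. These differences were small beside their error, since the median standard error of a gene's log2 fold change was 0.27. In 18 genes the 3 Piezo1 GOF values all lay above the 3 WT values (13.6% of all tested genes did so), and in 1 gene, Rpl3l, they all lay below (12.1% of all tested genes did so). The genes are measured in the same 6 libraries and vary together, so the count of 79 is not a count of independent observations.

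The share of all counts taken by the 88 genes was 1.96%, 2.15% and 1.39% in WT 1 to 3 and 2.14%, 2.72% and 2.15% in Piezo1 GOF 1 to 3. The groups overlapped narrowly, at WT 2 and Piezo1 GOF 1. The means were 1.83 ± 0.397% in WT, against 2.34 ± 0.329% in Piezo1 GOF (SD, n = 3 each), a difference of 0.505 percentage points. Without WT 3, the library with the lowest share, the difference was 0.282 points, and without Piezo1 GOF 2, the library with the highest share, it was 0.315 points. Large subunit counts exceeded small subunit counts in every library, by a ratio of 1.34, 1.39 and 1.33 in WT and 1.30, 1.28 and 1.32 in Piezo1 GOF. These ratios did not overlap, the 3 Piezo1 GOF values being slightly lower. The large subunit sum includes Rpl3l, whose level was lower in Piezo1 GOF. With Rpl3l left out of that sum, the ratios overlapped, WT 3 lying below Piezo1 GOF 3. In bulk tissue, fewer cells of a type and less RNA per cell cannot be told apart.

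Single libraries set much of the picture. Relative to each gene's mean log2 CPM (CPM are counts set relative to library size, here with factors from TMM, the trimmed mean of M-values) over the 6 libraries, the median of the 86 genes was -0.18, 0.15 and -0.38 in WT 1 to 3. In Piezo1 GOF 1 to 3 it was 0.15, 0.34 and 0.00. WT 3 held the lowest value of 68 of the 86 genes. Piezo1 GOF 2 held the highest value of 48, and WT 2 of 27, so a WT library stood level with Piezo1 GOF 1. Without WT 3, the median log2 fold change was 0.16 in place of 0.28, and 64 of 86 genes were positive. Without WT 2 the median was 0.43 and 83 of 86 were positive.

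**Figure D1:**
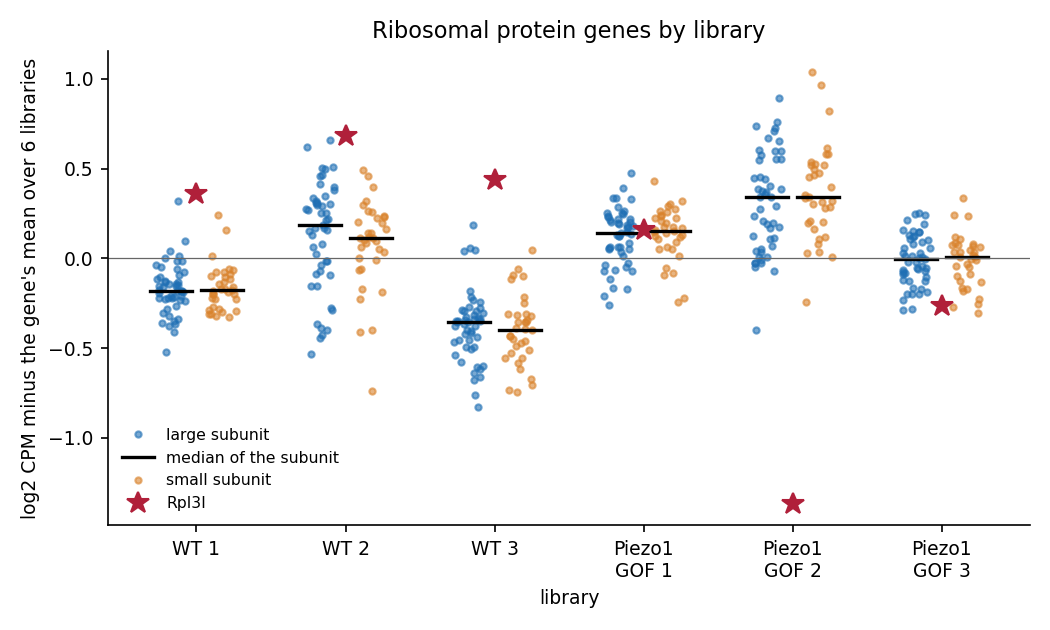
Each point is 1 ribosomal protein gene in 1 library, plotted as its log2 CPM minus its own mean over the 6 libraries, for large (blue) and small (orange) subunit genes, with bars at the medians and a star for Rpl3l. Rpl26 and Rps27 are left out of the plot. The WT 3 cloud lies lowest and the Piezo1 GOF 2 cloud highest, while Rpl3l runs the other way, highest in WT 2 and lowest in Piezo1 GOF 2.

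Levels varied moderately between libraries. The median standard deviation of log2 CPM over the 6 libraries was 0.31 for the 86 genes, against 0.42 over all tested genes. Among the steadiest was Rps3, which lines the mRNA entry channel, with a standard deviation of 0.15. Rps3 measured 212, 253 and 190.3 CPM in WT, against 251, 230.3 and 224 CPM in Piezo1 GOF. Per kilobase of transcript, the highest mean levels were those of Rps12 (1485 CPM per kb), Rpl41 (1269) and Rps25 (938). These 3 genes stood in this order in all 6 libraries, although Rps12 itself ranged from 420.5 to 1054 CPM and Rpl41 from 335 to 897 CPM. At the low end among tested genes were Rps19bp1 (3.64 CPM per kb), Rpl26 (5.17), Rps4l (7.78) and Rpl7l1 (13.4).

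Rpl3l was the 1 member whose Piezo1 GOF values all lay below the WT values. It lies on chromosome 17 (GENCODE release 21 on mm10, positions 24727820 to 24736143, plus strand, 10 exons), and its coding sequence of 1221 bases is 74.8% identical to that of Rpl3. Rpl3l measured 177, 222 and 187 CPM in WT, against 154, 53.5 and 115 CPM in Piezo1 GOF. Piezo1 GOF 2 lay far below the other 5 libraries. The log2 fold change was -0.86 ± 0.36 (SE, adjusted p = 0.236 by edgeR), which did not pass the threshold. Without Piezo1 GOF 2 it was -0.51.

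Rpl3, which takes the same place in the ribosome of other tissues, showed the opposite order. It measured 240.2, 199.9 and 193 CPM in WT, against 294, 397 and 299 CPM in Piezo1 GOF, again without overlap, with the highest value in Piezo1 GOF 2. Its log2 fold change was 0.64 ± 0.25 (SE, adjusted p = 0.215 by edgeR). Rpl3 overlaps Syngr1 in the annotation, and the use of strand in counting is not given in the sources used here. The same limit holds for other members that overlap a coding gene, such as Rpl31, Rpl35, Rps28 and Rps27rt.

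The ratio of Rpl3l to Rpl3 within a library is nearly free of library size. Its log2 value was -0.44, 0.15 and -0.05 in WT, where both genes were at similar levels, and -0.93, -2.89 and -1.38 in Piezo1 GOF. The means differed by -1.62, or 3.07-fold (two-sided exact permutation p = 0.1, the smallest that 3 against 3 libraries can give). Without Piezo1 GOF 2 the difference was -1.04. As a share of the pair, Rpl3l made up 48.1 ± 5.19% in WT, against 24.7 ± 11.6% in Piezo1 GOF (SD, n = 3 each).

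The sum of the pair was much steadier than either gene. Rpl3 plus Rpl3l measured 417, 422 and 380.1 CPM in WT, against 448, 450.4 and 414 CPM in Piezo1 GOF, a 1.19-fold range over the 6 libraries. Over the same libraries Rpl3 alone ranged 2.06-fold and Rpl3l alone 4.15-fold. The group means of the sum were 406 ± 22.9 and 437 ± 20.6 CPM (SD, n = 3 each). Without TMM scaling the sum ranged 1.46-fold.

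**Figure D2:**
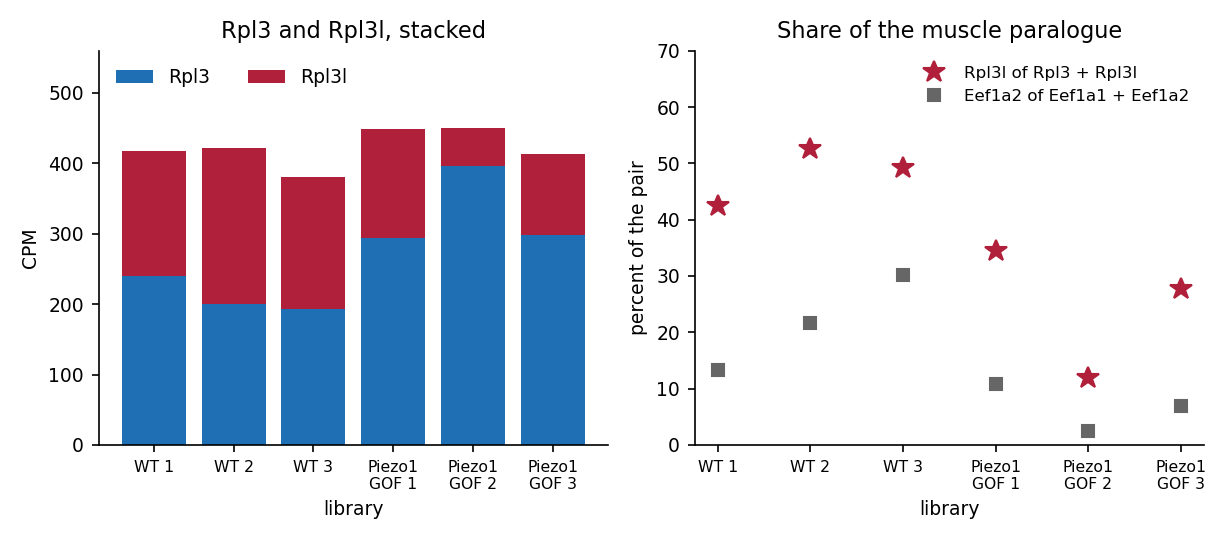
Left, stacked bars of Rpl3 (blue) and Rpl3l (red) in CPM for each of the 6 libraries. Right, the percentage of each paralogue pair taken by its muscle member, Rpl3l (stars) and Eef1a2 (squares). The stack height ranges from 380.1 to 450.4 CPM while the Rpl3l share ranges from 52.6% in WT 2 to 11.9% in Piezo1 GOF 2.

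Markers of skeletal muscle were also lower in the Piezo1 GOF libraries. All 39 genes of the muscle list were above 0 in all 6 libraries, and their summed level ranged from 98680.1 to 211886 CPM in WT and from 31329.9 to 95903 CPM in Piezo1 GOF. Of these, 38 had a negative log2 fold change, with a median of -1.07, and 27 of the 39 had a lower one than Rpl3l. Set against the muscle list, Rpl3l measured 1.79, 1.05 and 1.02 CPM per 1000 CPM of muscle genes in WT and 1.61, 1.71 and 1.51 in Piezo1 GOF. These values overlapped, with WT 1 the highest of the 6 (two-sided exact permutation p = 0.4 for n = 3 against 3, on log2 values). With the mean log2 CPM of the muscle list as a covariate, the log2 fold change of Rpl3l was -0.17 (edgeR adjusted p = 0.963) and that of Rpl3 was 0.34 (edgeR adjusted p = 0.913). The summed muscle level did not overlap between genotypes, so muscle content and genotype cannot be told apart in this fit.

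The elongation factor pair Eef1a1 and Eef1a2, of which Eef1a2 is the form of muscle and neurons, gave a second case of such a pair. As a mean ± SD of 3 libraries, Eef1a2 made up 21.7 ± 8.46% of the pair in WT, against 6.70 ± 4.16% in Piezo1 GOF (two-sided exact permutation p = 0.1), with the lowest share again in Piezo1 GOF 2. Unlike the Rpl3 pair, the sum of the Eef1a pair was not steady, ranging 1.76-fold.

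Among 10875 genes outside the family with a mean of at least 5 CPM, those whose log2 CPM followed Rpl3l most closely over the 6 libraries included Tmem8b, Crat, Cpt1b and Fgf13. Their Pearson correlations with Rpl3l lay between 0.996 and 0.997, over libraries that share the same 2 genotypes. Crat encodes carnitine acetyltransferase and Cpt1b the muscle form of carnitine palmitoyltransferase. Crat measured 386, 521 and 433 CPM in WT, against 308, 109 and 249 CPM in Piezo1 GOF, the same order of libraries as Rpl3l.

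In the large subunit, Rpl39, a short protein that lines the peptide exit tunnel, measured 228, 189.7 and 172 CPM in WT, against 284, 464 and 249 CPM in Piezo1 GOF. All 3 Piezo1 GOF values were above the WT values and Piezo1 GOF 2 stood well above the other 5 libraries. The log2 fold change was 0.76 ± 0.30 (SE, adjusted p = 0.220 by edgeR). Rpl31 and Rpl35, which sit at the tunnel's outer rim, had log2 fold changes of 0.42 ± 0.23 and 0.43 ± 0.22 (SE), also without overlap. Rpl17, Rpl19 and Rpl23a, which sit at the rim as well, had 0.49 ± 0.33, 0.28 ± 0.30 and 0.12 ± 0.25 (SE), each with overlapping groups.

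Other large subunit members gave a mixed picture. Rpl10, which joins the large subunit late in its maturation, measured 559.8, 539 and 503 CPM in WT, against 658, 991 and 778 CPM in Piezo1 GOF, without overlap, and had 0.60 ± 0.29 (SE, adjusted p = 0.285 by edgeR). Rpl41, whose coding sequence of 75 bases is the shortest of the family, had 0.61 ± 0.33 (SE, adjusted p = 0.324 by edgeR), also without overlap. Rpl4, which like Rpl39 reaches into the tunnel, had -0.06 ± 0.27 (SE), with WT 2 at 519 CPM and the other 5 libraries between 352 and 401 CPM.

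Rpl5 and Rpl11 bind the 5S ribosomal RNA together and can inhibit Mdm2 when ribosome assembly is disturbed. Rpl11 measured 96.4, 112 and 85.7 CPM in WT, against 136, 133 and 126 CPM in Piezo1 GOF, without overlap, and its log2 fold change was 0.42 ± 0.20 (SE, adjusted p = 0.282 by edgeR). Rpl5 had 0.25 ± 0.26 (SE), and its groups overlapped.

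The P-stalk, which recruits the GTPase elongation factors, showed no separation of the genotypes. Rplp0, which anchors the stalk, measured 719.9, 1126 and 639 CPM in WT, against 949.6, 799 and 747 CPM in Piezo1 GOF. The spread within WT covered all 3 Piezo1 GOF values, and the log2 fold change was 0.01 ± 0.33 (SE, adjusted p = 0.993 by edgeR), with the sign depending on the scaling. Rplp1 had 0.21 ± 0.28 and Rplp2 0.12 ± 0.23 (SE), each with overlapping groups.

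The remaining large subunit genes with negative values were close to 0. Rpl7 had -0.18 ± 0.34 (SE), with the highest value (717 CPM) in WT 2 and the lowest (344 CPM) in Piezo1 GOF 2, and Rpl29 had -0.06 ± 0.22 (SE). Rpl24 had -0.03 ± 0.25 and Rpl14 -0.01 ± 0.32 (SE). Rpl7 and Rpl29 turned positive under some alternatives. Without WT 2, Rpl7 had a log2 fold change of 0.18.

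In the small subunit, Rps26, at the mRNA exit channel, had the smallest p of the family. It measured 40.9, 36.1 and 34.3 CPM in WT, against 55.7, 97.9 and 42.3 CPM in Piezo1 GOF. The WT values were close together, whereas the Piezo1 GOF values were spread, with Piezo1 GOF 3 just above WT 1. The log2 fold change was 0.82 ± 0.31 (SE, adjusted p = 0.207 by edgeR).

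Rps28, which neighbours Rps26 at the exit channel, measured 66.3, 80.6 and 50.9 CPM in WT, against 109, 118 and 81.4 CPM in Piezo1 GOF. The groups came close, at WT 2 and Piezo1 GOF 3, and the log2 fold change was 0.64 ± 0.25 (SE, adjusted p = 0.212 by edgeR). Rps21 measured 154, 127 and 115 CPM in WT, against 177, 330.2 and 177 CPM in Piezo1 GOF. Piezo1 GOF 2 held the highest value by a wide margin, and the log2 fold change was 0.79 ± 0.30 (SE, adjusted p = 0.212 by edgeR).

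The groups overlapped in 28 of the 35 small subunit members. Among the 28 with overlap, Rps2 had a log2 fold change of -0.07 ± 0.27 and Rps3 of 0.10 ± 0.23 (SE). Rps6, the substrate of the S6 kinases, had 0.06 ± 0.27 (SE). Rps12, the most abundant member per kilobase, measured 568, 763 and 420.5 CPM in WT, against 867, 1054 and 728 CPM in Piezo1 GOF, which overlapped, and had 0.60 ± 0.33 (SE, adjusted p = 0.341 by edgeR). Rpsa, also known as the laminin receptor, had 0.26 ± 0.30 (SE), and Rps27a, which is made as a fusion with ubiquitin, had 0.42 ± 0.25 (SE), both with overlapping groups.

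The 4 members on the X chromosome, Rpl10, Rpl36a, Rpl39 and Rps4x, were singled out after their values were seen. All 4 were without overlap, and their median log2 fold change was 0.58. Rps4x measured 177, 193 and 177 CPM in WT, against 228, 318 and 259 CPM in Piezo1 GOF, with 0.56 ± 0.23 (SE, adjusted p = 0.238 by edgeR). Rpl36a measured 28.2, 32.3 and 27.6 CPM in WT, against 40.1, 44.1 and 36.8 CPM in Piezo1 GOF, with 0.46 ± 0.19 (SE, adjusted p = 0.235 by edgeR). Over the 426 other tested genes on X the median was 0.14, and 16.4% of them lay higher without overlap.

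The size of the difference varied with the length of the coding sequence. The 84 tested members with an annotated coding sequence were split into 28 short, 28 middle and 28 long ones. The short class keeps Rps27 and Rpl34 and the middle class Rpl26, whose own values are uncertain, as given below. In the 28 shortest (75 to 396 bases) the median log2 fold change was 0.42, all 28 were positive, and 10 were higher without overlap. In the 28 of middle length (399 to 564 bases) it was 0.32, with 26 positive and 3 higher without overlap. In the 28 longest (576 to 1257 bases) it was 0.12, with 23 positive, 5 higher and 1 lower without overlap. Higher without overlap were thus 35.7%, 10.7% and 17.9% of the 3 classes, against 17.6%, 16.4% and 15.1% of the other tested genes in the same length ranges, so the middle and long classes lay under or near that background.

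Other tested genes within the same length ranges had medians of 0.11 (557 genes), 0.05 (737 genes) and 0.03 (4085 genes). Across the 84 members, log2 fold change and coding length had a Pearson correlation of -0.47 and a Spearman correlation of -0.46, and across 12444 other genes the values were -0.12 and -0.11. Log2 fold change also varied with level: against mean log2 CPM, the 84 members had a Pearson correlation of -0.36 and a Spearman correlation of -0.32. Length and level were not separated. Genes of one set of libraries are not independent replicates. Piezo1 GOF 2 and WT 2 carried most of the relation with length. Relative to each gene's mean, Piezo1 GOF 2 had medians of 0.47, 0.32 and 0.09 in the short, middle and long members. WT 2 had -0.04, 0.17 and 0.25. The difference between the short and the long medians was 0.30, and without Piezo1 GOF 2 it was 0.16 and without WT 2 it was 0.19. With the muscle score as a covariate, which cannot be told apart from genotype here, the difference was -0.01, while the median over all 86 members was 0.27.

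**Figure D3:**
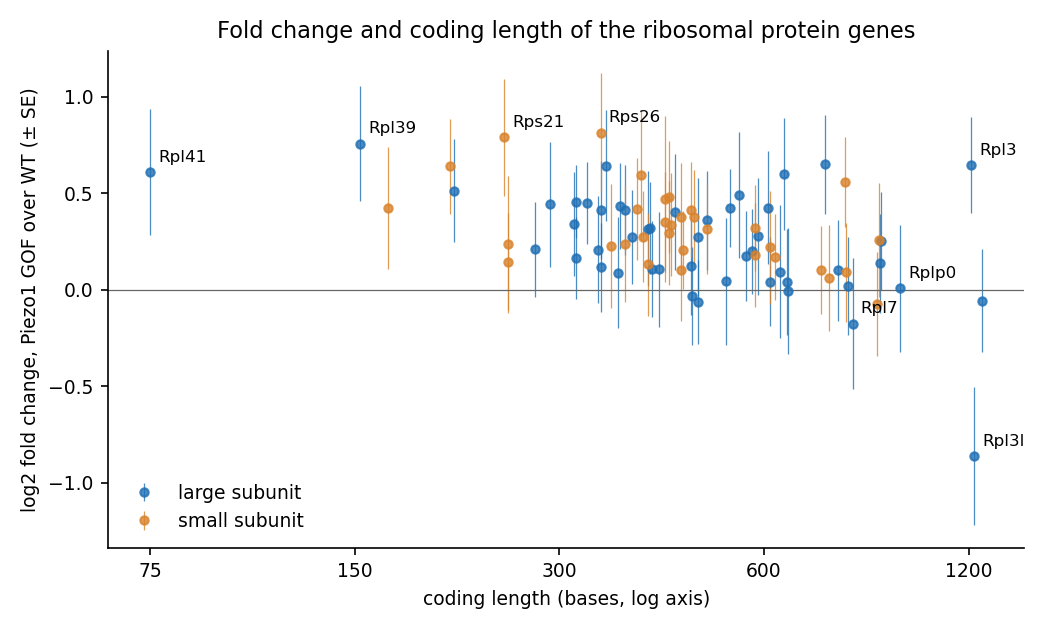
Log2 fold change (Piezo1 GOF over WT, with bars of 1 SE) against coding length in bases on a log axis, for large (blue) and small (orange) subunit genes. Rpl26 and Rps27 are left out of the plot. Several short genes, such as Rpl41, Rpl39, Rps21 and Rps26, lie between 0.61 and 0.82, most long genes lie near 0, and Rpl3 and Rpl3l, of nearly equal length, lie apart at 0.64 and -0.86.

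The other paralogue pairs showed smaller differences. Rpl36al exceeded its X-linked paralogue Rpl36a in all 6 libraries, and the log2 ratio of the first to the second differed by -0.31 between genotypes, with no overlap (two-sided exact permutation p = 0.1 for n = 3 against 3). The groups nearly touched, at 0.739 in WT 2 and 0.730 in Piezo1 GOF 2. The 5 other ratios tested, Rpl22l1 to Rpl22, Rps27l to Rps27rt, Rpl7l1 to Rpl7, Rps4l to Rps4x and Rpl37rt to Rpl37, overlapped between genotypes, with exact permutation p from 0.3 to 1. In these 7 pairs, including Rpl3l to Rpl3, no value passes adjustment for the number of pairs, since 0.1 is the lowest p possible. Rpl22l1 was low beside Rpl22, at 18.4, 10.1 and 15.3 CPM in WT, against 12.2, 16.6 and 17.5 CPM in Piezo1 GOF, which overlapped. Rpl7l1, a paralogue of Rpl7 with 64.9% identity, measured 14.9, 12.4 and 13.8 CPM in WT, against 16.5, 27.8 and 20.1 CPM in Piezo1 GOF, with a log2 fold change of 0.65 ± 0.26 (SE, adjusted p = 0.218 by edgeR).

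Some members cannot be separated from near-identical copies, and their own values are uncertain. The coding sequences of Rps27 and Rps27rt are identical over 252 bases. Rps27 took 183, 9 and 8 counts in WT and 4, 20 and 328 counts in Piezo1 GOF, whereas Rps27rt held 187 to 431 CPM. The sum of both was 299.8 ± 116 CPM in WT, against 353.8 ± 80.8 CPM in Piezo1 GOF (SD, n = 3 each), with overlap. Rpl34 held 8.94 to 23.0 CPM, far under its copy Rpl34-ps1 at 119.6 to 224 CPM, and the sum of both lay higher in Piezo1 GOF without overlap (165 ± 33.0 against 219 ± 24.4 CPM). Rpl26 was at 0 in WT 1 and WT 3 and at 1.63 to 5.59 CPM in the other libraries, so its fold change is uncertain. Rps4l and Rpl37rt are annotated as processed pseudogenes that are transcribed.

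Many members carry small nucleolar RNA genes in their introns. In the annotation, 30 members contain 59 such genes within their span. Their median log2 fold change was 0.26, against 0.30 in the 56 tested members with none, and the difference between these medians was not tested.

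The lists for other parts of the translation apparatus had medians at or below 0, and their difference from the cytosolic ribosomal proteins was not tested. Of 77 mitochondrial ribosomal protein genes, 19 were positive and 58 negative, with a median of -0.29, and 17 lay lower without overlap and 1 higher (12.1% and 13.6% of all tested genes did so). Mrpl14 measured 75.7, 70.9 and 82.5 CPM in WT, against 57.0, 32.6 and 47.7 CPM in Piezo1 GOF. Its log2 fold change was -0.74 ± 0.24 (SE, adjusted p = 0.171 by edgeR). The 69 ribosome biogenesis factors had a median of -0.09, with 23 positive and 46 negative, and the 16 RNA polymerase I genes, which include its transcription factors, a median of 0.00 with 8 of each sign, 3 of them higher and 2 lower without overlap. The 44 translation factors had a median of -0.21, with 10 positive and 34 negative, and 32 genes of translational control such as the mTOR pathway a median of -0.29. No gene of these lists passed an adjusted p of 0.05 by edgeR.

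The pyrimidine tract is also found in genes that encode no ribosomal protein. The 28 genes of this kind had a median log2 fold change of -0.04, with 12 positive and 16 negative. Eef1a1 was among the positive ones, at 1769, 1559 and 1254 CPM in WT, against 2359.6, 3080.2 and 2555 CPM in Piezo1 GOF. Naca, a nascent chain chaperone with a muscle isoform, was lower without overlap (log2 fold change -1.09 ± 0.39 SE, adjusted p = 0.195 by edgeR). Among ribosomal protein genes that the symbol rule misses, Fau had 0.36 ± 0.27 and Gnb2l1, also called Rack1, -0.00 ± 0.32 (SE).

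**Figure D4:**
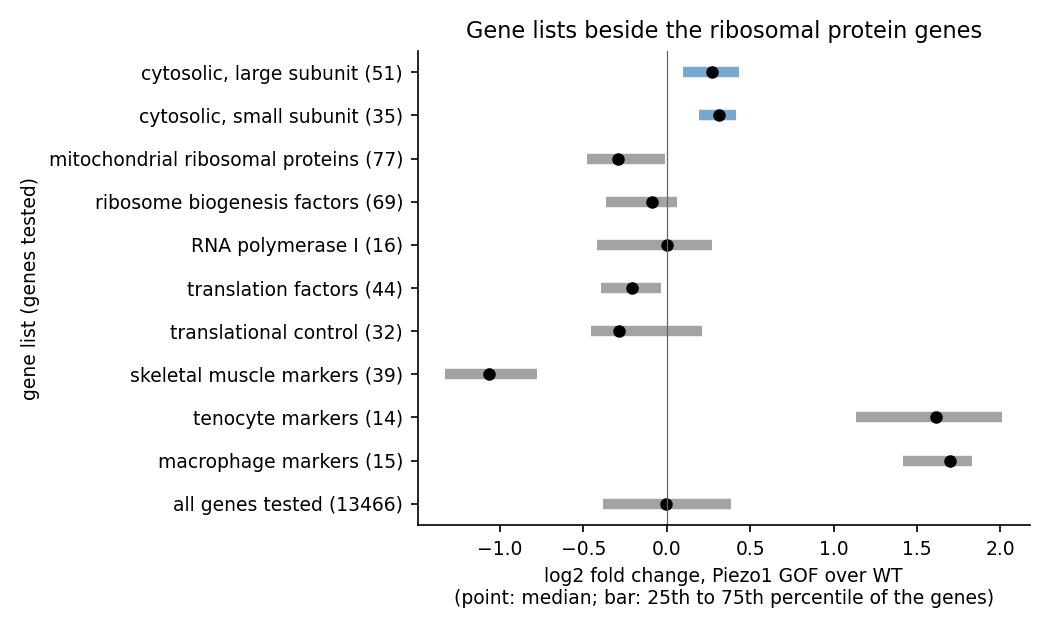
Median log2 fold change (points) and the range from the 25th to the 75th percentile of the genes (bars) for each gene list, with the number of tested genes in parentheses. Both cytosolic subunits (blue) lie above 0, at 0.27 and 0.31, the other translation lists lie at or below 0, and the marker lists lie far outside at -1.07, 1.62 and 1.70.

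Depth and composition differed between the libraries. Total counts ranged from 8131527 to 17180856. The ribosomal RNA precursor transcript Rn45s took 6.42% to 13.9% of counts, and the library with the lowest share of it, Piezo1 GOF 2, held the highest share of ribosomal protein counts, while WT 3 was the reverse. The other libraries did not follow this order. Piezo1 GOF 1, with 13.3% of Rn45s, held 2.14% of ribosomal protein counts, and WT 1, with 8.87%, held 1.96%. The muscle list took 10.8% to 19.3% of counts in WT and 3.45% to 9.07% in Piezo1 GOF. The 15 macrophage markers, all above 0 in every library, summed to 235 to 327 CPM in WT, against 734 to 904 CPM in Piezo1 GOF. The 14 tenocyte markers, also all above 0 in every library, summed to 5388 to 15488 CPM in WT, against 29864 to 52061 CPM in Piezo1 GOF. Of 7 erythroid genes, 3 were above 0 in all libraries, and the sum was 11.2 to 36.0 CPM in WT, against 20.97 to 71.8 CPM in Piezo1 GOF. The part of these differences in the values of the ribosomal protein genes was not tested. The muscle covariate given above cannot separate it, because muscle levels did not overlap between genotypes. Piezo1 itself measured 144, 115 and 103 CPM in WT, against 178, 128 and 152 CPM in Piezo1 GOF, which overlapped, and a count per gene does not show the allele.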

How the data were processed

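Total RNA of the Achilles tendon was sequenced in 6 libraries, prepared with a RamDA-seq kit and mouse primers per the labels' protocols. The deposited table holds expected counts per gene, made by the authors and neither scaled for depth nor for length. The tools listed, per the submitters' processing notes, are bcl2fastq, STAR, RSEM and edgeR, with no versions or roles, and the build is mm10. Neither the annotation nor any use of strand is given in the sources used here.

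Expected counts were rounded, genes were filtered with filterByExpr (minimum count 10), which left 13466 genes, and libraries were scaled by TMM. Piezo1 GOF was set against WT with the quasi-likelihood test of edgeR, two-sided, without covariates, with Benjamini-Hochberg adjustment over all genes and a threshold of 0.05. The main edgeR fit was tested on simulated counts with planted fold changes. The ratios, shares, length classes and permutation tests were not tested in this way. With 3 libraries per group and total counts of 8131527 to 17180856, the common dispersion over all tested genes was 0.113, and the precision differed between genes. CPM use TMM-scaled library sizes, and log2 CPM and ratios a prior count of 2. Levels per kilobase use the length of a principal transcript of GENCODE release 21, where all 88 symbols had 1 match. Libraries of one genotype differed by far more than sampling noise (chi-square over its degrees of freedom 38.7 to 133).

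The members, gene lists and tests were chosen with earlier results of these data known. Named were the 5 members with the smallest p in each direction, the 3 highest and 3 lowest in CPM per subunit, the 2 most and 2 least variable, Rpl3 and Rpl3l, the P-stalk genes, Rpsa, Rps27a and paralogue pairs, and up to 4 genes of each other list. Some genes that the rule names are not reported here. Members described by structural role, length or chromosome outside these, such as Rpl5, Rpl11, Rpl17, Rpl19, Rpl23a, Rpl31, Rpl35, Rpl41, Rps6 and Rps25, were chosen after their values were seen. Alternatives were other scalings and filters, DESeq2, limma voom, a replicate block, the muscle score as covariate and leaving out each library. Those added after seeing the data are named in the closing section. Python 3.11.15 (biopython 1.88, matplotlib 3.10.9, pandas 2.3.3, scipy 1.17.1, numpy 2.4.6) and R 4.3.3 (DESeq2 1.42.0, limma 3.58.1, edgeR 4.0.16) were used.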

Additional observations from a re-analysis of the deposited data

How the results depend on the processing

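The absence of ribosomal protein genes past the threshold held under every alternative run, with 0 called each time. The medians of both subunits and the values for Rpl3l and for its ratio to Rpl3 kept their sign throughout. The number of all genes past the threshold, 2 by edgeR, was 891 by DESeq2, 116 by limma voom and 165 with no count filter. It was 0 with no scaling, with the muscle covariate and with the replicate block, and 0 to 228 when 1 library was left out. The cause was not tested.

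With the replicate number as a block, 0 ribosomal protein genes were called, their median was 0.30, and Rpl3l had -0.97 (edgeR adjusted p = 0.371). Same-numbered libraries of the 2 genotypes had correlations of -0.21, -0.14 and -0.05 in their deviations from the group means. Such deviations balance out over 3 libraries, so these values cannot show whether the numbers pair the libraries. With 1 library left out, the median over the 86 genes ranged from 0.16 to 0.43, Rpl3l from -1.22 to -0.51 and its log2 ratio to Rpl3 from -2.02 to -1.04. With no scaling the median of all genes moved to 0.10 and that of the family to 0.39. The counts of positive genes (64 to 84 over all alternatives), the difference between short and long members, the TMM-scaled share (a difference of 0.349 points) and the ratio with 1 library left out were added after seeing the data. The share of total counts takes no scaling factor, so other factors were not run for it.

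Named genes near 0 changed sign. Rplp0 had -0.014 by DESeq2, -0.0092 with RLE factors, -0.016 without Rn45s and Lars2 and -0.0035 with no count filter. By limma voom, Rpl29 had 0.10, Rpl4 0.062, Rpl7 0.14, Rps2 0.021 and Rps27l -0.037. With no scaling, Rpl29 had 0.041, Rpl4 0.057 and Rps2 0.024. With the muscle covariate, Rpl22l1 had -0.28, Rpl36al -0.084, Rpl4 0.10, Rpl7 0.38, Rps2 0.20, Rps27 -0.36, Rps27l -0.34 and Rps4l -0.16. With 1 library left out the ranges were -0.13 to 0.31 for Rpl22l1, -0.21 to 0.064 for Rpl29 and -0.16 to 0.14 for Rpl4. They were -0.37 to 0.18 for Rpl7, -0.15 to 0.29 for Rplp0, -0.018 to 0.23 for Rplp2, -0.19 to 0.049 for Rps2, -2.43 to 3.67 for Rps27 and -0.10 to 0.30 for Rps27l. None of these genes passed the threshold in any of these fits.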

Other observations

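Bop1, a factor of large subunit assembly, had the largest log2 fold change of the ribosome biogenesis list, 3.14 ± 0.56 (SE, adjusted p = 0.0621 by edgeR). It measured 28.4, 46.2 and 33.9 CPM in WT, against 624, 141 and 191 CPM in Piezo1 GOF, with no overlap and a wide spread among the Piezo1 GOF libraries. The use of strand in counting is not given. Reads from any other transcript at the Bop1 locus could not be separated, and their part was not tested. Other biogenesis factors lay the other way: Gnl3l had -0.72 ± 0.20 (SE, adjusted p = 0.145 by edgeR), without overlap, and Rrp12 had -1.48 ± 0.47 (SE, adjusted p = 0.170 by edgeR), with overlapping groups. Polr1a, the largest subunit of RNA polymerase I, measured 38.6, 69.9 and 67.8 CPM in WT, against 32.2, 28.9 and 29.5 CPM in Piezo1 GOF (-0.96 ± 0.26, SE, adjusted p = 0.135 by edgeR). Taf1b and Taf1d, of the same polymerase list, lay higher without overlap, at 0.61 ± 0.28 and 0.75 ± 0.40 (SE). Eif2ak3, the kinase PERK of the unfolded protein response, measured 24.6, 27.5 and 20.6 CPM in WT, against 34.1, 49.96 and 42.1 CPM in Piezo1 GOF (0.79 ± 0.22, SE, adjusted p = 0.145 by edgeR).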
